A study of Mus musculus with 69 samples.

Results

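The interferon-inducible GTPases described here are 10 genes, chosen by symbol: the guanylate-binding proteins Gbp2, Gbp3, Gbp5, Gbp6, Gbp7, Gbp8 and Gbp9, and the immunity-related GTPases Igtp, Irgm1 and Irgm2. All 10 were found among the 24537 genes listed in the RNA-seq tables of a study of mouse bone marrow-derived macrophages (BMDMs), cells grown from bone marrow into macrophages and left untreated (basal) or stimulated with interleukin-4 (IL-4) at 20 ng/ml. The first experiment compared basal and 24-hour IL-4 BMDMs from 5 inbred strains, with 3 libraries per group except basal PWK, which has 2. The strains were C57BL/6J (here C57), BALB/cJ (here BALB), NOD/ShiLtJ (here NOD), PWK/PhJ (here PWK) and SPRET/EiJ (here SPRET), the last from another mouse species, Mus spretus. The second followed C57 and SPRET BMDMs at basal and after 1, 6 and 24 hours of IL-4, with 2 libraries per group. The third followed the same 4 states in Egr2 fl/fl BMDMs (Egr2WT) and LyzM-Cre Egr2 fl/fl BMDMs (Egr2MKO), also with 2 libraries per group. Both of those genotypes carry the floxed Egr2 allele, and only Egr2MKO carries Cre, driven by the myeloid LyzM promoter, so an effect of Cre itself and of losing Egr2 cannot be told apart. The fourth separated the 2 parental alleles in BMDMs of F1 offspring of C57 and SPRET and of C57 and NOD, with 2 basal and 2 IL-4 libraries per cross. By the methods of the study, all mice were healthy young adult females.

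Guanylate-binding proteins (GBPs) are large dynamin-like GTPases, and immunity-related GTPases (IRGs) are smaller ones. Interferons induce both families through gamma-activated sites and interferon-stimulated response elements in their promoters, the latter bound by interferon regulatory factors. The proteins assemble on pathogen-containing vacuoles and on bacteria, where they help to break membranes and to expose microbial products to caspase-11 and to the inflammasomes. IL-4 drives macrophages along another programme, through STAT6, and EGR2 is a transcription factor that IL-4 induces there.

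The libraries held 7.02 M to 22.5 M sequenced tags (median 16.1 M) in the 5-strain table, 5.70 M to 24.0 M (median 13.5 M) in the time course and 4.69 M to 32.9 M (median 12.0 M) in the Egr2 table. Levels are in TPM, transcript abundances scaled per gene length and per library. Differences are on the log2(TPM + 1) scale, which understates changes of genes near or below 1 TPM, and a call means an adjusted p under 0.05 by limma over all genes tested in that table. All 8 macrophage markers examined (Adgre1, Csf1r, Cd68, Itgam, Lyz2, Cd14, Fcgr1 and Mertk) were measured, with a summed level of 11020 to 30790 TPM across the 5-strain libraries, lowest in PWK. The 4 fibroblast markers (Col1a1, Col1a2, Dcn and Pdgfra) summed to 202 to 210 TPM in basal PWK and 105 to 112 TPM in PWK after IL-4, against 2.24 to 16.7 TPM in the other strains. The 6 neutrophil and precursor markers summed to 19.7 to 20.1 TPM in basal PWK and 9.52 to 10.6 TPM in basal SPRET, against at most 2.97 TPM in C57, BALB and NOD. The 4 mast cell and basophil markers summed to 4.78 to 8.96 TPM in SPRET, against at most 0.419 TPM in C57. The part of these cells in the PWK and SPRET results was not tested. In the 5-strain libraries the T cell markers (6 genes) summed to at most 3.77 TPM and the natural killer cell markers (5 genes) to at most 3.75 TPM, and Ifng, which encodes interferon gamma and is made by both cell types, did not exceed 0.142 TPM in any library of the 3 TPM tables. In such bulk samples, fewer cells of a type and less RNA per cell cannot be told apart.

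The members lie in 4 places of the genome (mm10 coordinates from the deposited files, transcript bounds). A cluster on chromosome 3, all on the plus strand, holds Gbp5 (142496934-142522344), Gbp7 (142530336-142550151), Gbp3 (142560496-142573212) and Gbp2 (142620663-142638008). A cluster on chromosome 5, all on the minus strand, holds Gbp8 (105014153-105053561), Gbp9 (105078394-105110292) and Gbp6 (105270702-105293699). On chromosome 11, Irgm1 is on the minus strand at 48865249-48871346, and Igtp (58199556-58207592) and Irgm2 (58214977-58222783) are neighbours on the plus strand. Near-identical copies make some values uncertain. Of all stretches of 75 bases, the read length, in the Gbp6 transcripts, 67.3% also occur in another gene, mainly Gm43302 and Gbp10, so the Gbp6 level is uncertain throughout. The share was 11.3% for Gbp7 (mostly Gm43802), 8.04% for Gbp8, 7.80% for Igtp, 4.78% for Irgm2 and under 4% for the rest, and no stretch of Irgm1 was shared. Igtp and Irgm2 share 163 such stretches with each other. Whether the divergence of the strains from the reference genome affected the counting of these genes was not tested.

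The promoters are shown because most members moved together across strains and genotypes. RefSeq entries (GRCm38.p6) were found for 7 members and not for Gbp6, Gbp8 and Gbp9. Each line gives the 120 bases before the RefSeq transcription start, which for Gbp3 and Irgm1 lies upstream of the start in the deposited files, 5′ to 3′ on the strand of the gene. Capitals mark matches on either strand to GAAANNGAAA, the core of an interferon-stimulated response element, and to TTCNNNGAA, the letters of a gamma-activated site; overlapping or adjoining matches run together.
Gbp2, chr3:142620543-142620662, plus strand: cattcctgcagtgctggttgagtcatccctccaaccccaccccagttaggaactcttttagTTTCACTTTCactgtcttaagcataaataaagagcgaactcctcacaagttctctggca
Gbp3, chr3:142559924-142560043, plus strand: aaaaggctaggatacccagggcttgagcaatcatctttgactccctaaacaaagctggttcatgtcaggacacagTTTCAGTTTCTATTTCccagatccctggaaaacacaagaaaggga
Gbp5, chr3:142496814-142496933, plus strand: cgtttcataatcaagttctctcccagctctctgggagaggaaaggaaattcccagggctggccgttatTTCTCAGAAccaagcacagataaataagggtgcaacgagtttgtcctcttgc
Gbp7, chr3:142530216-142530335, plus strand: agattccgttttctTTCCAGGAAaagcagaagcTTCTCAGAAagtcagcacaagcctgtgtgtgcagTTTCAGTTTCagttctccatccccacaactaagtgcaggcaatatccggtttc
Igtp, chr11:58199436-58199555, plus strand: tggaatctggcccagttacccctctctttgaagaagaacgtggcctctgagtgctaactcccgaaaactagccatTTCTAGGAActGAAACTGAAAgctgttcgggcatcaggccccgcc
Irgm1, chr11:48871421-48871540, minus strand: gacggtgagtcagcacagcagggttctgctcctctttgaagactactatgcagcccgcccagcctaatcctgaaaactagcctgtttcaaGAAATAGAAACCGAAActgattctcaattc
Irgm2, chr11:58214857-58214976, plus strand: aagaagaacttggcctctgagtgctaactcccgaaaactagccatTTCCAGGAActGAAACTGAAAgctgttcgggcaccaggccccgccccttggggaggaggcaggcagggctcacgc

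Over the 250 bases before the start, GAAANNGAAA was found in all 7 of these promoters, against 2.98% of 32851 RefSeq mouse promoters. In Gbp5 it lies outside the 120 bases printed. TTCNNNGAA was found in 4 of 7 (Gbp5, Gbp7, Igtp and Irgm2), against 7.02% of all promoters. The spacing TTCNNNNGAA, which STAT6 prefers, was found in 1 of 7 (Gbp3, at a further RefSeq start), against 5.85%. The windows of Igtp and Irgm2 were nearly one sequence: 87 of 90 bases were identical when they were shifted by 30 bases against each other, an identity of 96.7%, against 29.4 to 43.6% for the other pairs of members. The motifs are described here as letters and not as bound sites.

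At basal, the 10 GTPases taken as a sum were highest in NOD and lowest in SPRET, an order that not every member followed. The summed level of the 10 genes was 224 to 248 TPM in the NOD libraries, 121 to 135 TPM in C57, 111 to 141 TPM in BALB, 83.0 and 107 TPM in PWK, and 28.7 to 34.3 TPM in SPRET. Relative to C57, 9 of 10 members were higher in NOD and 9 of 10 were lower in SPRET, whereas the differences in BALB and PWK went both ways. Among all 11907 genes tested, 20.1% were higher and 54.1% lower in NOD, with a median difference of -0.30, and 35.5% were higher and 32.9% lower in SPRET. The members' median was 0.63 in NOD and -1.58 in SPRET.

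**Figure D1:**
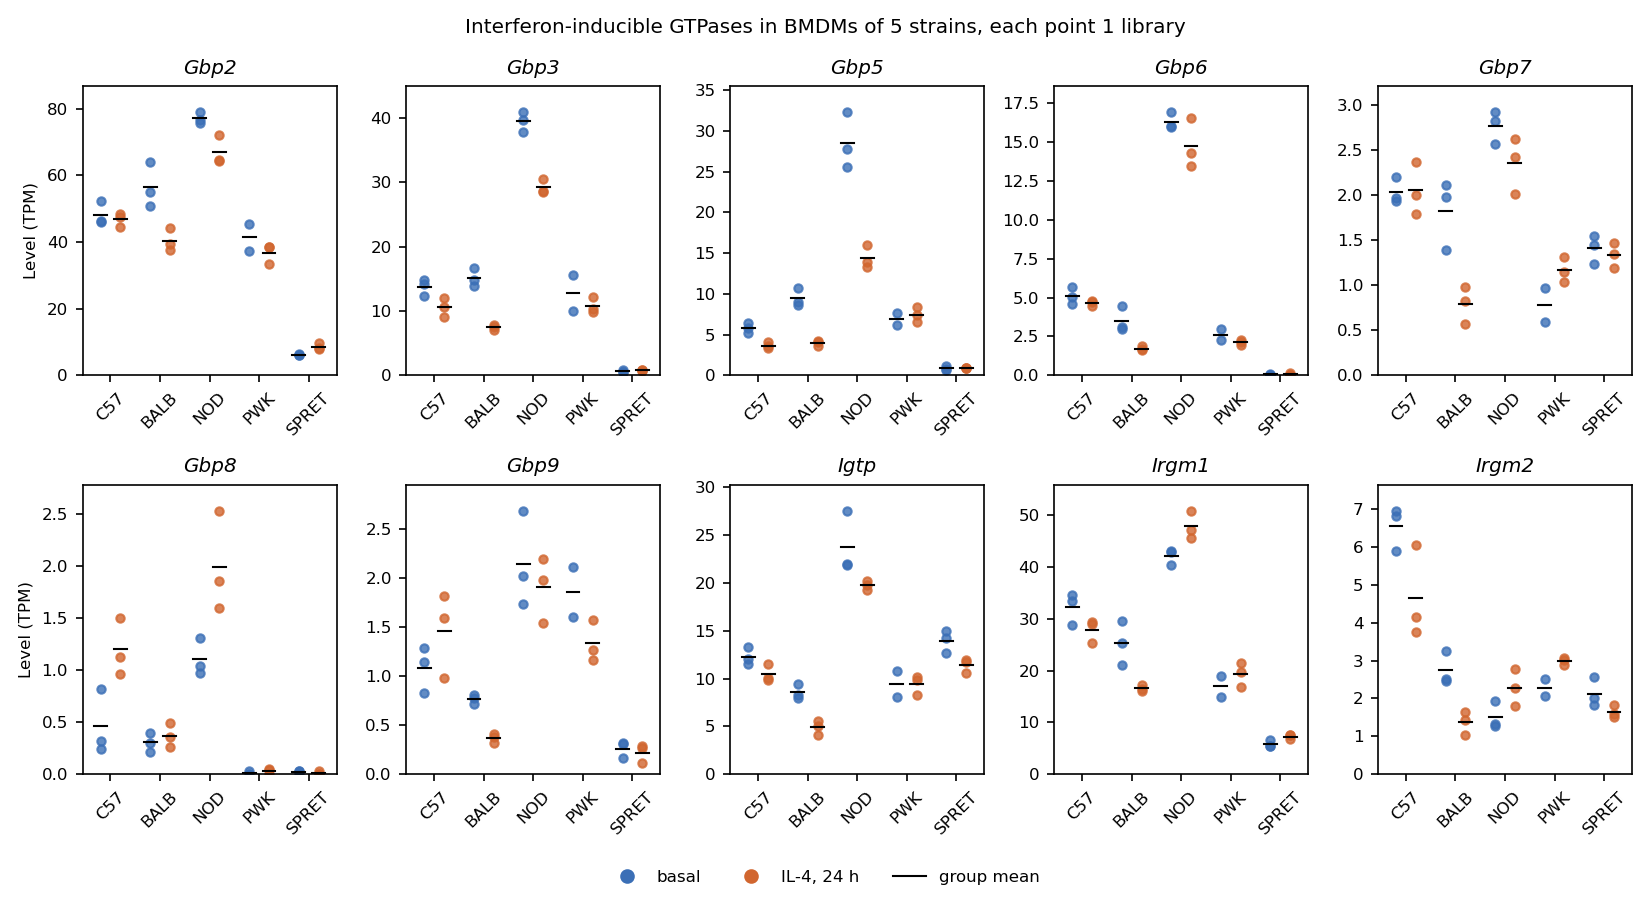
TPM of the 10 members in each basal (blue) and 24-hour IL-4 (orange) library of the 5 strains, 1 point per library, with a bar at the group mean and each axis starting at 0. In 9 of 10 panels the basal NOD points sit above the basal C57 points, the reverse holds for Irgm2, and SPRET is lowest for Gbp2, Gbp3, Gbp5, Gbp6, Gbp9 and Irgm1.

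Gbp2, which coats bacteria and vacuoles and was the most abundant member in every strain but SPRET, measured 52.3, 46.0 and 46.2 TPM in basal C57. It measured 76.7, 78.9 and 75.8 TPM in NOD and 6.36, 6.22 and 6.08 TPM in SPRET. The 3 sets of libraries did not overlap: NOD was 1.60 times C57 (log2 difference 0.67 ± 0.09 SE) and SPRET was 0.129 times C57 (-2.77 ± 0.09). BALB measured 64.0, 54.9 and 50.9 TPM, a small difference from C57 (0.22, adjusted p = 0.0410) that no longer passed without the first BALB library (adjusted p = 0.272), and PWK measured 45.3 and 37.4 TPM.

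Gbp5, which promotes NLRP3 inflammasome assembly, had the widest excess in NOD. Its libraries measured 27.8, 32.3 and 25.6 TPM in basal NOD against 5.84, 6.43 and 5.16 TPM in C57, a ratio of 4.91 (2.12 ± 0.11, adjusted p = 1.26e-14). BALB measured 10.7, 9.00 and 8.60 TPM, also above all C57 libraries (0.61, adjusted p = 7.06e-05). SPRET measured 0.806, 1.13 and 0.633 TPM, below every other strain (-1.88 against C57, adjusted p = 1.08e-13).

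Gbp3 followed the same order at the ends. It measured 39.7, 40.8 and 37.8 TPM in NOD, 14.8, 12.3 and 14.2 TPM in C57 and 0.535, 0.841 and 0.533 TPM in SPRET. The differences from C57 were 1.46 ± 0.12 in NOD and -3.18 ± 0.12 in SPRET, and neither BALB (0.13) nor PWK (-0.13) passed the test. Gbp6, with the counting limit given above, was 16.0, 16.9 and 16.1 TPM in NOD, 5.07, 4.61 and 5.70 TPM in C57 and at most 0.0790 TPM in SPRET.

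Gbp7, Gbp8 and Gbp9 were the less abundant GBPs. Gbp7 was 1.36 times C57 in NOD (adjusted p = 0.0141) and 0.381 times C57 in PWK (-0.78, adjusted p = 6.38e-06). In SPRET it was 0.692 times C57 (adjusted p = 0.00983), a call that was lost without the third SPRET library (adjusted p = 0.0518). Gbp9 was 1.97 times C57 in NOD, 0.242 times in SPRET and 1.71 times in PWK, the last resting on the first basal PWK library (adjusted p = 0.128 without it). Gbp8 stayed under 1.4 TPM in every basal library and did not exceed 0.0340 TPM in basal PWK and SPRET.

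The IRGs parted from each other. Irgm1, a regulatory IRG that keeps the effector IRGs off the cell's own membranes, followed the GBPs, with 42.8, 43.0 and 40.3 TPM in NOD, 34.5, 33.4 and 28.7 TPM in C57 and 5.49, 6.65 and 5.50 TPM in SPRET (-2.27 ± 0.11 against C57). Igtp, also called Irgm3, another regulatory IRG, was 22.0, 27.5 and 21.8 TPM in NOD against 12.1, 13.3 and 11.5 TPM in C57 (0.89, adjusted p = 5.96e-08). In SPRET it was 14.2, 15.0 and 12.6 TPM, overlapping C57 (0.17, adjusted p = 0.170), which made it the one member without a lower level there. Irgm2, the neighbour of Igtp, went the opposite way in NOD: it measured 1.33, 1.93 and 1.26 TPM there against 6.81, 6.94 and 5.89 TPM in C57, a ratio of 0.230 (-1.60 ± 0.14, adjusted p = 2.04e-10). C57 had the highest Irgm2 level of the 5 strains, with BALB, PWK and SPRET at 0.420, 0.349 and 0.325 times C57. SPRET did not differ detectably from PWK (adjusted p = 0.685) or BALB (adjusted p = 0.0965) in Irgm2, and BALB did not differ detectably from PWK (adjusted p = 0.298).

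All 10 NOD calls remained under every alternative setting and with any 1 library left out, and 8 of 9 remained in SPRET, Gbp7 being the exception given above. In BALB 6 members differed from C57 (Gbp2 and Gbp5 higher, Gbp6, Igtp, Irgm1 and Irgm2 lower), where 24.8% of all genes were higher and 18.4% lower. In PWK 7 differed (Gbp9 higher, Gbp6, Gbp7, Gbp8, Igtp, Irgm1 and Irgm2 lower), where 19.7% of all genes were higher and 41.5% lower. Under every setting and with any 1 library left out, 3 of the 6 BALB calls (Gbp5, Igtp and Irgm2) and 4 of the 7 PWK calls (Gbp6, Gbp7, Irgm1 and Irgm2) remained. Igtp in PWK moved from -0.36 to -0.17 without the second basal PWK library (adjusted p = 0.324) and to -0.17 under median-ratio scaling (adjusted p = 0.169).

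Other interferon-stimulated genes had the same direction at both ends. Of 19 such genes tested outside the GTPase families, 17 were higher and none lower in NOD, and 17 were lower and none higher in SPRET, with medians of 0.82 and -3.32. Among the genes for interferons, receptors and signalling, 7 of 18 were higher and 8 lower in NOD, and 4 were higher and 11 lower in SPRET. Of all genes, 20.1% were higher and 54.1% lower in NOD, and 35.5% were higher and 32.9% lower in SPRET. The shares of this list that were lower in NOD and higher in SPRET were below those of all genes. The transcript of interferon beta, Ifnb1, was at 0.771 to 1.24 TPM in the basal NOD libraries and did not exceed 0.217 TPM in any other basal strain library. Its part in the levels of the members was not tested.

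Ranked over the 10 groups of the 5-strain table, the genes whose mean log2 level was most like the mean standardised profile of the members were Ifit3 (Pearson r = 0.98), Phf11a (0.97), Herc6 (0.96), Uba7 (0.96) and Rsad2 (0.95), of 8801 genes with at least 5 TPM in a group. The 10 points share libraries and strains, so the r values are descriptions. Rsad2 for example, which encodes viperin, averaged 418 TPM in basal NOD, 84.8 TPM in C57 and 1.19 TPM in SPRET. Among the members themselves, r with that profile ran from 0.98 for Gbp6 and 0.97 for Irgm1 down to 0.56 for Igtp and 0.32 for Irgm2.

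After 24 hours of IL-4, the members fell most widely in BALB. There, 9 of 10 were lower than at basal and none higher, where 24.8% of all genes were lower and 9.45% higher. In C57 3 were lower (20.5% of all genes) and 1 higher (15.0%), in NOD 2 lower (6.07%) and 2 higher (28.2%), in SPRET 1 lower (12.9%) and 2 higher (31.4%), and in PWK none passed, where 6.08% of all genes were lower and 18.6% higher. The NOD split depended on the scaling, with 6 lower and 1 higher under median-ratio scaling and 5 lower and 1 higher under quantile normalisation. By comparison, of 9 IL-4 response control genes, 5 rose in NOD and 6 in each of the other strains.

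**Figure D2:**
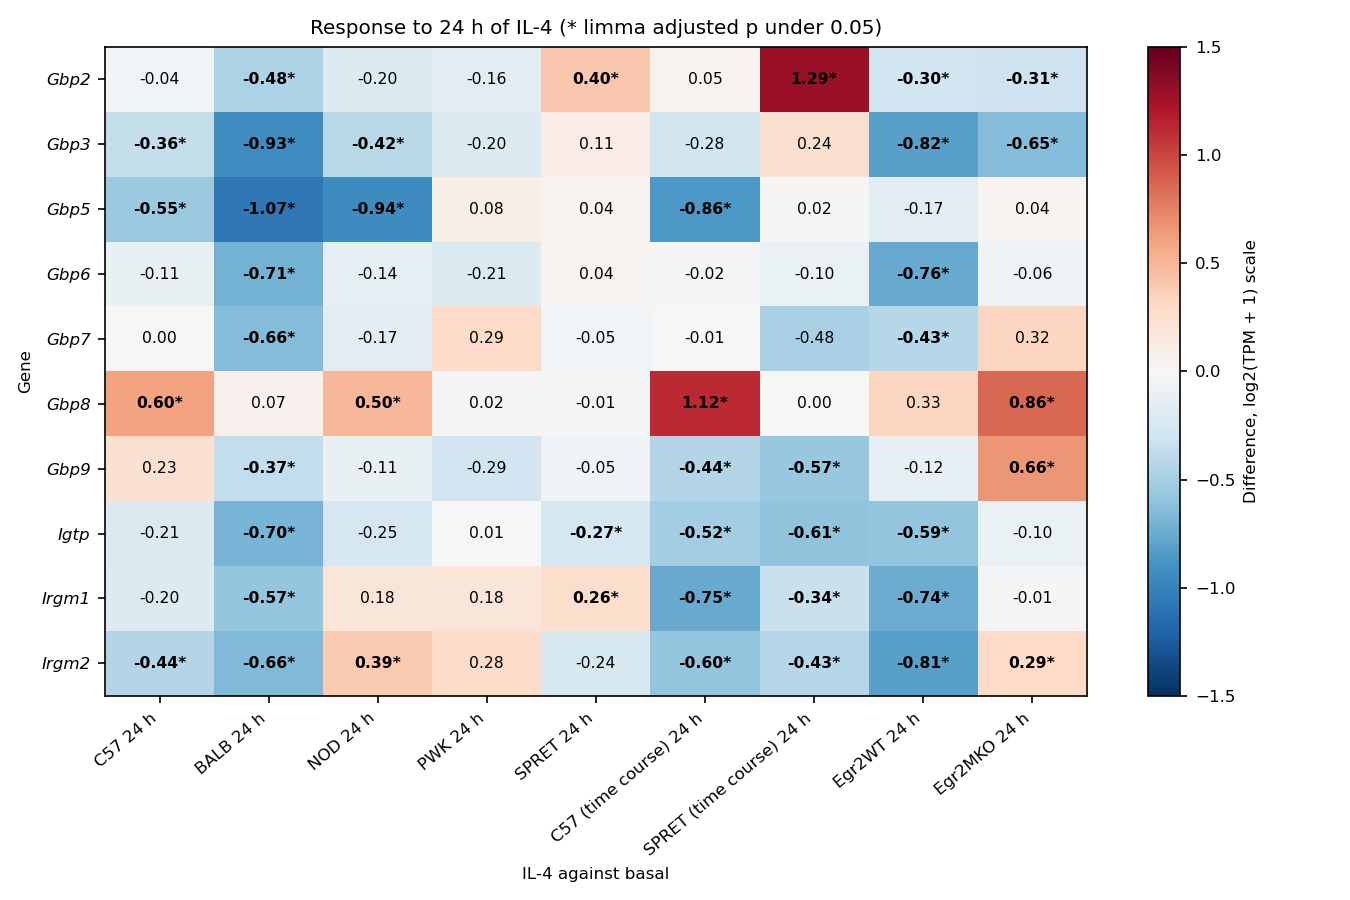
Difference between 24-hour IL-4 and basal on the log2(TPM + 1) scale for each member (rows) in each strain, in the time course and in both Egr2 genotypes (columns), in red where higher after IL-4 and in blue where lower. An asterisk marks an adjusted p under 0.05, and the BALB column is blue and marked for 9 members, from -1.07 for Gbp5 to -0.37 for Gbp9.

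Gbp5 responded most in BALB, from 10.7, 9.00 and 8.60 TPM at basal to 4.18, 4.09 and 3.64 TPM after IL-4 (-1.07 ± 0.11, adjusted p = 4.02e-08). It also fell in NOD, to 16.0, 13.3 and 13.9 TPM (-0.94), and in C57, to 4.04, 3.58 and 3.32 TPM (-0.55), in each strain with no overlap between basal and IL-4 libraries. In SPRET, already under 1.2 TPM, it measured 0.886, 0.916 and 0.894 TPM after IL-4.

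Gbp3 fell in BALB from 16.6, 13.9 and 14.7 TPM to 7.01, 7.84 and 7.43 TPM (-0.93 ± 0.12), and in NOD to 30.5, 28.5 and 28.7 TPM (-0.42). The fall in C57 to 10.6, 12.0 and 9.03 TPM was smaller (-0.36, adjusted p = 0.0201) and was not called under every setting. Gbp2 fell in BALB to 44.1, 39.4 and 37.4 TPM (-0.48) but rose in SPRET to 7.81, 9.70 and 8.15 TPM (0.40 ± 0.09, adjusted p = 0.000587).

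Irgm2 fell in BALB from 3.25, 2.47 and 2.53 TPM to 1.63, 1.04 and 1.45 TPM (-0.66) and in C57 to 6.04, 4.15 and 3.77 TPM (-0.44). The C57 libraries overlapped (the lowest basal one was at 5.89 TPM), and the call was lost when any of 4 C57 libraries was left out, with an adjusted p of 0.111 without the third IL-4 library. In NOD it was 2.78, 1.81 and 2.27 TPM after IL-4, overlapping the basal libraries. That difference (0.39) was called as a rise at adjusted p = 0.0326, but its adjusted p was 0.0898 under median-ratio scaling and 0.114 under quantile normalisation. Irgm1 in SPRET measured 6.74, 7.51 and 7.49 TPM after IL-4, above the basal libraries, and was called as a rise (0.26, adjusted p = 0.0439) that also did not pass under median-ratio scaling (adjusted p = 0.247). Gbp8 was the only member to rise in C57, from 0.323, 0.818 and 0.243 TPM to 1.51, 1.13 and 0.969 TPM (0.60, adjusted p = 0.000353).

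The tests above were pooled over 50 pairs of member and strain, of which 5 were called higher and 15 lower. Median-ratio scaling gave 3 higher and 21 lower, and quantile normalisation 3 higher and 22 lower. All but Gbp9 of the 9 BALB falls remained under every setting and with any library left out. The other interferon-stimulated genes fell in 17 of 19 cases in BALB, 12 in C57, 4 in PWK, 3 in SPRET and 1 in NOD. Of all genes, 24.8% were lower in BALB, 20.5% in C57, 6.08% in PWK, 12.9% in SPRET and 6.07% in NOD. The SPRET and NOD counts were thus near the share of all genes.

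Whether the response itself differed between strains was tested directly against C57. In BALB the response was lower than in C57 for 8 members, from -0.44 for Gbp2 to -0.66 for Gbp7, where 10.4% of all genes had a lower response and 5.43% a higher one. Of these, Gbp6 (-0.60, adjusted p = 0.00539) and Gbp7 (-0.66, adjusted p = 0.00478) remained under every setting. Gbp2, Gbp3, Gbp5, Gbp8, Gbp9 and Igtp each lost the call without the first basal BALB library, with adjusted p values of 0.0669, 0.0656, 0.0890, 0.0985, 0.0533 and 0.0938. Irgm1 (-0.37, adjusted p = 0.0915) and Irgm2 (-0.23, adjusted p = 0.497) did not pass, although Irgm1 did without the third basal BALB library (-0.49, adjusted p = 0.020).

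In NOD Irgm2 responded differently (0.83 ± 0.20, adjusted p = 0.00254, where 26.0% of all genes had a higher response and 7.32% a lower one), and this remained under every setting. Other members were called in NOD only under some alternatives. The response of Gbp5 (-0.39, adjusted p = 0.0610) was called lower than in C57 under median-ratio scaling (-0.62, adjusted p = 0.00120), quantile normalisation (-0.48, adjusted p = 0.00857) and a pseudocount of 5 TPM (-0.47, adjusted p = 0.00124). Both scalings also called Gbp9 lower (adjusted p = 0.0369 and 0.0236), and median-ratio scaling called Gbp2 lower (adjusted p = 0.00668). Irgm1 (0.38, adjusted p = 0.0520) was called higher with only the groups compared (adjusted p = 0.0345). In SPRET the responses of Gbp2 (0.44), Gbp3 (0.47), Gbp5 (0.59) and Irgm1 (0.46) were higher, where 24.4% of all genes were, and that of Gbp8 was lower (-0.62, where 8.94% were). Gbp5 and Gbp8 remained under every setting, whereas Gbp2, Gbp3 and Irgm1 fell short under median-ratio scaling (adjusted p = 0.0706, 0.0990 and 0.0917). Gbp8 did not exceed 0.0280 TPM in SPRET here, so its lower response sets the rise in C57 against almost no transcript. The same holds for Gbp8 in PWK, where it did not exceed 0.0520 TPM. In PWK Gbp5 (0.63) and Irgm2 (0.72) had a higher response, where 16.8% of all genes did, and Gbp8 a lower one (-0.58, where 5.58% did), and all 3 lost the call without the second basal PWK library (adjusted p = 0.0861, 0.0991 and 0.0675).

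The time course asked when these differences arose. Its table was scaled separately, and Gbp3 and Gbp7 were measured there on transcripts of another length than in the 5-strain table, so levels are compared only within it. At basal 8 members were again lower in SPRET than in C57 (26.4% of all genes were), from -0.45 for Gbp9 to -2.48 for Gbp3. Gbp8 (-0.33) and Igtp (0.21) did not pass, and these basal differences were not rerun under the alternative settings.

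**Figure D3:**
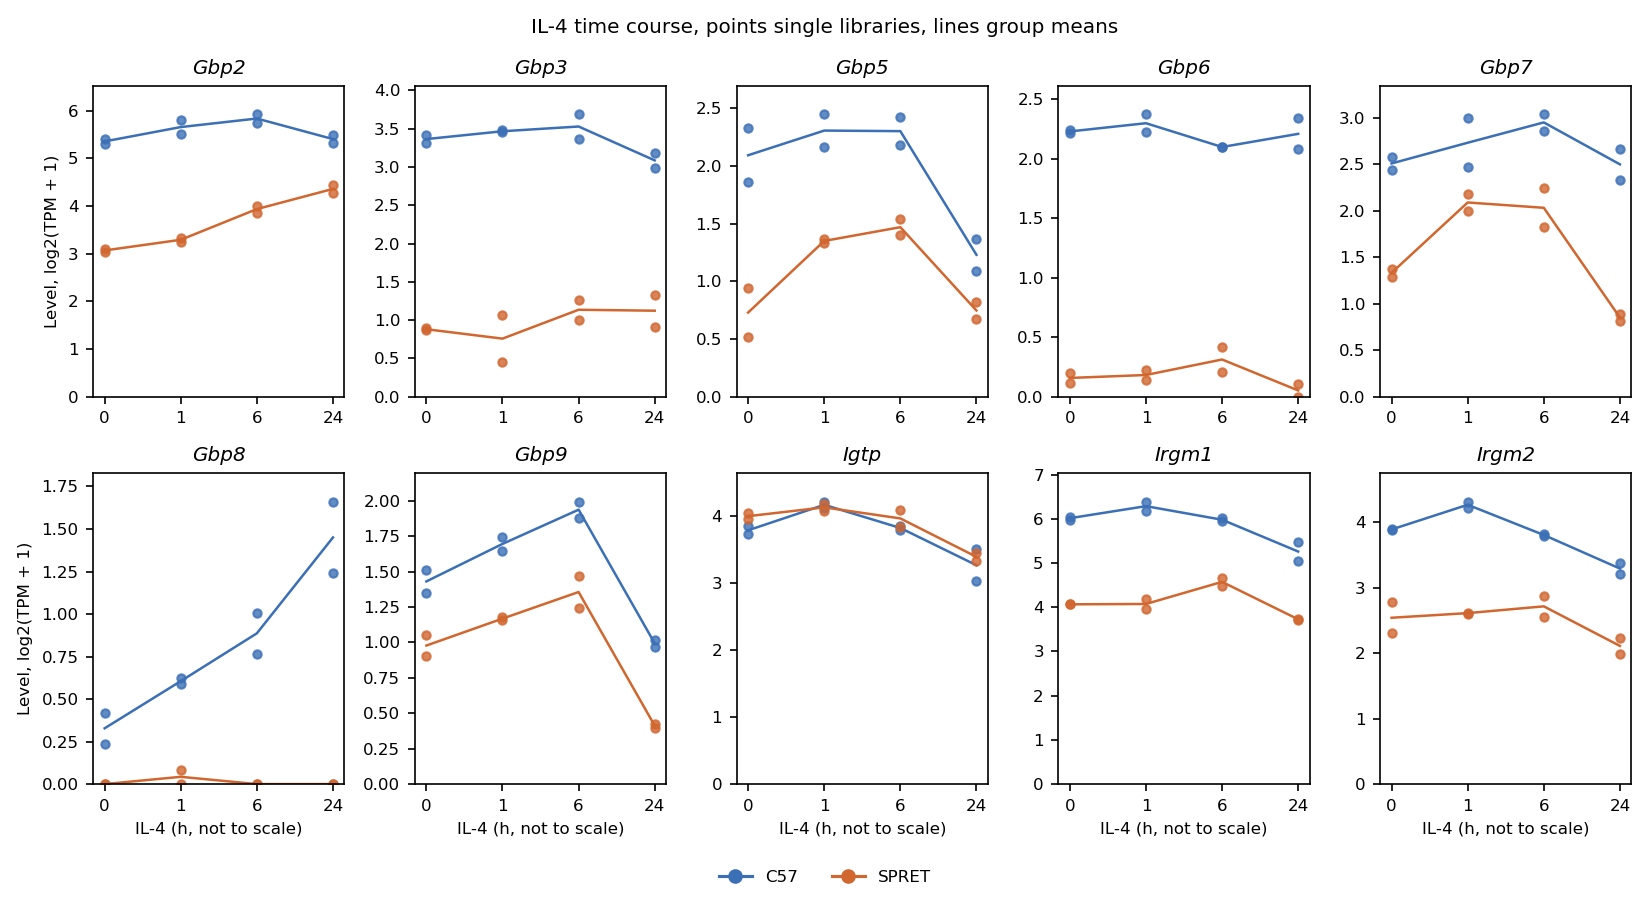
Log2(TPM + 1) of the members at 0, 1, 6 and 24 hours of IL-4 (evenly spaced, not to scale) in the 2 libraries per time of C57 and SPRET, with lines through the group means. Gbp2 in SPRET climbs at each step, from 7.21 and 7.55 TPM to 20.8 and 18.3 TPM, while Irgm1 in C57 drops to 32.3 and 43.2 TPM at 24 hours.

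In C57 no member passed at 1 hour, where 2.73% of all genes were higher and 1.22% lower. At 6 hours Gbp2 (0.48), Gbp8 (0.56) and Gbp9 (0.51) were higher than at basal and none was lower, where 10.9% of all genes were higher and 9.55% lower. All 3 of these calls were lost without the second 6-hour C57 library (adjusted p = 0.0730, 0.234 and 0.102). At 24 hours Gbp5 (-0.86), Gbp9 (-0.44), Igtp (-0.52), Irgm1 (-0.75) and Irgm2 (-0.60) were lower (21.1% of all genes) and Gbp8 was higher (1.12, 18.2% of all genes). Of these 6, Irgm1 and Gbp8 remained under every setting and with any library left out. Igtp moved to -0.28 without the first 24-hour library (adjusted p = 0.0845), and Gbp9 did not pass without the second basal library (-0.36, adjusted p = 0.130). Irgm1 went from 62.4 and 65.0 TPM at basal through 71.7 and 82.9 TPM at 1 hour and 63.9 and 60.4 TPM at 6 hours to 32.3 and 43.2 TPM at 24 hours, with no overlap between the last time and the others. Gbp9 rose from 1.55 and 1.85 TPM to 2.68 and 2.98 TPM at 6 hours and was at 0.957 and 1.02 TPM at 24 hours. Gbp8 rose from 0.338 and 0.178 TPM to 1.36 and 2.16 TPM at 24 hours.

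In SPRET Gbp7 was higher at 1 hour (0.76) and none was lower, where 4.83% of all genes were higher and 3.92% lower, a call lost without either 1-hour SPRET library (adjusted p = 0.0588 and 0.154). At 6 hours Gbp2 (0.87), Gbp5 (0.74), Gbp7 (0.70), Gbp9 (0.38) and Irgm1 (0.51) were higher and none was lower, where 16.9% of all genes were higher and 13.7% lower. Of these 5, Gbp2 remained under every setting and with any library left out, and the Gbp9 call held in 1 of 16 fits that left out a library. By 24 hours only Gbp2 was still higher (1.29 ± 0.11, 14.8% of all genes), and Gbp9 (-0.57), Igtp (-0.61), Irgm1 (-0.34) and Irgm2 (-0.43) were lower (21.8%). The fall of Irgm1 is opposite to its rise in SPRET in the 5-strain table (0.26), and it was lost without either 24-hour SPRET library (adjusted p = 0.154 and 0.124). Irgm2 moved to -0.19 without the second basal SPRET library (adjusted p = 0.347). Gbp2 measured 7.21 and 7.55 TPM at basal, 8.49 and 9.08 TPM at 1 hour, 15.1 and 13.5 TPM at 6 hours and 20.8 and 18.3 TPM at 24 hours, each pair above the one before. In C57 it measured 38.4 and 41.3 TPM at basal, 52.6 and 59.6 TPM at 6 hours and 38.7 and 44.0 TPM at 24 hours. Gbp8 was listed at 0 in every SPRET library but 1, which had 0.0610 TPM.

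From 6 to 24 hours the members mostly came down in both strains. In C57 6 were lower at 24 hours than at 6 hours and Gbp8 was higher, where 19.5% of all genes were lower and 14.4% higher. In SPRET 6 were lower and Gbp2 was higher (0.42), where 16.4% of all genes were lower and 6.20% higher. Gbp5, Gbp9, Igtp, Irgm1 and Irgm2 were lower in both, for Gbp9 by -0.94 in each strain. These steps from 6 to 24 hours were not rerun under the alternative settings.

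The response at 24 hours was higher in SPRET than in C57 for Gbp2 (1.24 ± 0.15, adjusted p = 7.75e-05) and Gbp5 (0.88, adjusted p = 0.0303), where 12.8% of all genes were. It was lower for Gbp8 (-1.12, adjusted p = 0.00516), where 16.1% were, but SPRET held almost no Gbp8 transcript. The Gbp5 call was lost when the first C57 24-hour library (adjusted p = 0.102) or the second basal C57 library (adjusted p = 0.126) was left out. At 1 and 6 hours no member's response differed, where 1.41% and 5.85% of all genes had a higher response in SPRET and 0.910% and 5.29% a lower one. Of the 20 calls of the time course, the count was 13 without the second basal SPRET library and 12 when only the groups compared were fitted.

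Nearly all members were at higher levels in Egr2MKO. Egr2 itself measured 23.6 and 21.3 TPM in basal Egr2WT BMDMs and 101 and 99.5 TPM after 24 hours of IL-4, against 0.859 and 0.854 TPM and 4.72 and 7.05 TPM in Egr2MKO, so every library matched its label. In Egr2MKO 9 of 10 members were higher at basal, at 1 hour and at 6 hours, and all 10 at 24 hours, and none was lower at any time. Of all genes, 5.95% were higher at basal, 6.04% at 1 hour, 11.5% at 6 hours and 25.9% at 24 hours. The median difference of the members was 0.66, 0.94, 0.87 and 1.38 at the 4 times, beside 0.015, 0.012, 0.020 and 0.12 for all genes. At every time both Egr2MKO libraries lay above both Egr2WT libraries for 10 of 10 members, as was so for 29.8%, 30.1%, 28.7% and 48.1% of all genes.

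**Figure D4:**
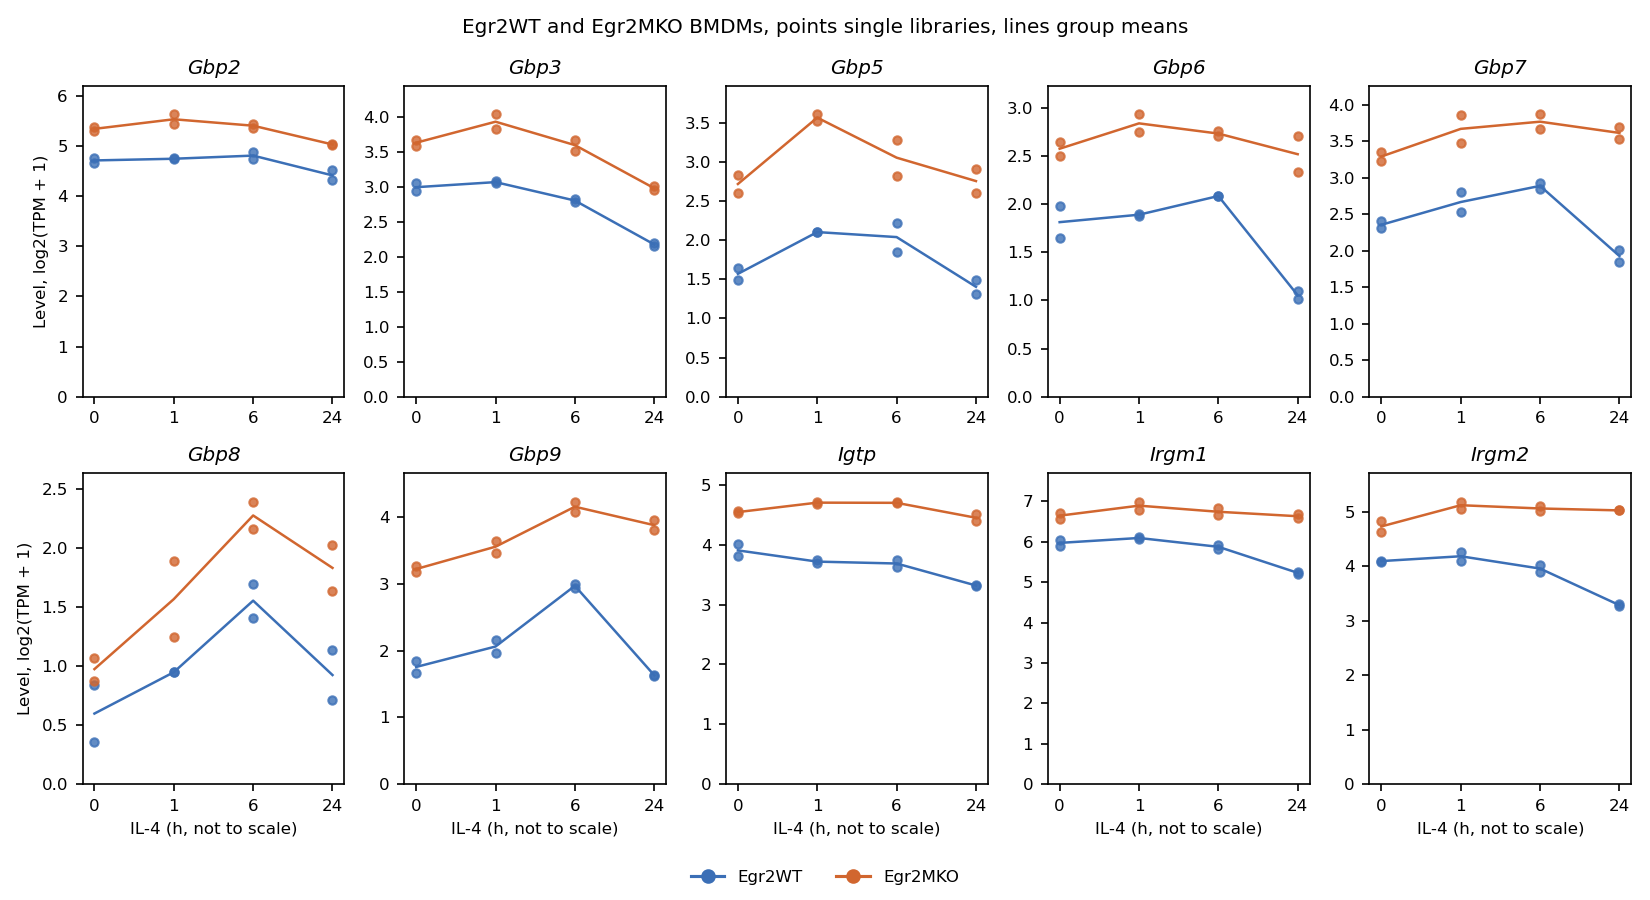
Log2(TPM + 1) of the members at 0, 1, 6 and 24 hours of IL-4 (evenly spaced, not to scale) in the 2 libraries per time of Egr2WT and Egr2MKO, with lines through the group means. In all 10 panels both Egr2MKO points lie above both Egr2WT points at each time, and for Irgm1 and Irgm2 the Egr2WT line falls by 24 hours, to mean levels of 36.6 and 8.73 TPM, while those of Egr2MKO are 98.4 and 31.5 TPM.

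Gbp9 differed most. It measured 2.19 and 2.58 TPM in basal Egr2WT and 8.07 and 8.61 TPM in Egr2MKO, a ratio of 3.50 (1.47 ± 0.11, adjusted p = 6.06e-06). At 24 hours it measured 2.12 and 2.07 TPM against 14.5 and 13.0 TPM, a ratio of 6.55 (2.25 ± 0.11, adjusted p = 2.33e-08).

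Of the other GBPs, Gbp5 measured 2.13 and 1.81 TPM in basal Egr2WT and 6.09 and 5.10 TPM in Egr2MKO, a ratio of 2.84 that was 3.50 at 24 hours. Gbp7 went from a ratio of 2.14 at basal to 4.01 at 24 hours, and Gbp6, with its counting limit, from 1.96 to 4.44. Gbp2 measured 24.2 and 26.3 TPM against 40.7 and 38.5 TPM at basal (ratio 1.57) and 18.9 and 21.8 TPM against 31.9 and 31.5 TPM at 24 hours (1.56), and Gbp3 went from 1.63 to 1.96. Gbp8 passed the test at 24 hours (0.91, adjusted p = 0.0154), but its adjusted p was 0.124 without the second Egr2WT library and 0.113 without the second Egr2MKO library.

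Of the IRGs, Irgm1 measured 58.9 and 65.0 TPM in basal Egr2WT and 105 and 94.1 TPM in Egr2MKO (ratio 1.61). At 24 hours Irgm1 was at 37.1 and 36.0 TPM in Egr2WT and at 102 and 94.7 TPM in Egr2MKO (2.69). Irgm2 measured 15.9 and 16.1 TPM against 27.3 and 23.8 TPM at basal (1.59) and 8.59 and 8.87 TPM against 31.5 and 31.5 TPM at 24 hours (3.60, adjusted p = 1.62e-08). Igtp measured 13.0 and 15.1 TPM against 22.7 and 22.0 TPM at basal (1.59) and 9.06 and 8.91 TPM against 21.7 and 20.1 TPM at 24 hours (2.33).

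With any 1 library left out, 36 or 37 of the 37 calls were counted. When only the 2 genotypes at 1 time were fitted, 29 were, with Gbp2, Gbp3, Gbp5, Gbp6 and Gbp7 at 6 hours among those lost (adjusted p from 0.0664 for Gbp2 to 0.159 for Gbp5).

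The response to IL-4 was then compared between the genotypes. In Egr2WT no member passed at 1 hour (2.34% of all genes were higher and 0.894% lower), and Gbp7 (0.53), Gbp8 (0.96) and Gbp9 (1.22) were higher at 6 hours (16.2%). At 24 hours 7 of 10 were lower than at basal (18.2%): Gbp2 (-0.30), Gbp3 (-0.82), Gbp6 (-0.76), Gbp7 (-0.43), Igtp (-0.59), Irgm1 (-0.74) and Irgm2 (-0.81). Of these 7, Gbp2 did not pass without the first 24-hour Egr2WT library (-0.20, adjusted p = 0.169), Gbp7 held under 2 of 8 alternative settings, and the other 5 remained throughout. In Egr2MKO Gbp5 (0.85) and Irgm2 (0.39) were higher at 1 hour (2.93%), and Gbp7 (0.48), Gbp8 (1.30), Gbp9 (0.93) and Irgm2 (0.33) at 6 hours (19.2%). With only the groups compared, Irgm2 at 1 hour did not pass (adjusted p = 0.164). Nor did, at 6 hours, Gbp7 and Gbp8 in Egr2WT (adjusted p = 0.0610 and 0.0772) or Gbp7 and Irgm2 in Egr2MKO (adjusted p = 0.0840 and 0.101). Gbp5 at 1 hour moved to 0.74 without the second basal Egr2MKO library and to 0.96 without the first. It was not called when either basal or either 1-hour Egr2MKO library was left out. At 24 hours only Gbp2 (-0.31) and Gbp3 (-0.65) were lower in Egr2MKO (11.8%), and Gbp8 (0.86), Gbp9 (0.66) and Irgm2 (0.29) were higher (16.2%). Of these 5, Gbp3 and Gbp9 remained under every setting and with any library left out.

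The difference between the 24-hour responses passed the test for 5 members, all higher in Egr2MKO, where 8.78% of all genes were. These were Irgm2 (1.10 ± 0.12, adjusted p = 9.04e-05), Irgm1 (0.73, adjusted p = 0.00186), Gbp9 (0.78, adjusted p = 0.00663), Igtp (0.49, adjusted p = 0.0116) and Gbp7 (0.75, adjusted p = 0.0306). Irgm2 fell in Egr2WT (-0.81) and was called higher in Egr2MKO (0.29), a call lost without the second basal Egr2MKO library (0.20, adjusted p = 0.198) or either 24-hour one (adjusted p = 0.0781 and 0.0782). Irgm1 fell in Egr2WT (-0.74) and did not pass in Egr2MKO (-0.01), with 105 and 94.1 TPM at basal and 102 and 94.7 TPM at 24 hours. The first 3 remained under every setting. Under quantile normalisation Igtp and Gbp7 were lost (adjusted p = 0.0849 and 0.0668), and 3 calls were counted without the first 24-hour Egr2MKO library or without the second basal one. At 1 and 6 hours no member's response differed, where 0.0166% and 0.455% of all genes had a higher response in Egr2MKO.

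The macrophage markers summed to 21056 to 21118 TPM in basal Egr2MKO and 24641 to 26216 TPM in basal Egr2WT, the T cell markers to 3.30 to 3.40 TPM and 1.66 to 2.08 TPM, and the natural killer cell markers to 0.0710 to 0.172 TPM and 0.691 to 1.15 TPM. The neutrophil and precursor markers summed to 1.79 to 3.36 TPM in basal Egr2MKO and 5.30 to 5.58 TPM in basal Egr2WT, and to 0.846 to 1.31 TPM and 2.39 to 3.05 TPM at 24 hours. The macrophage sum includes Lyz2, the LyzM gene whose promoter drives Cre in Egr2MKO, and it was not repeated without Lyz2. The part of these cells in the differences between genotypes was not tested.

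Other genes of the interferon system were higher in Egr2MKO as well. Of the 19 interferon-stimulated genes tested outside the GTPase families, 17 were higher at basal, 17 at 1 hour, 16 at 6 hours and 18 at 24 hours, and none was lower. Ifit3, which restricts viral replication, averaged 10.4 TPM in basal Egr2WT and 40.2 TPM in Egr2MKO (1.85 ± 0.14), and 1.62 TPM against 16.98 TPM at 24 hours (2.78). Of 18 genes for interferons, receptors and signalling tested, 7, 8, 12 and 15 were higher at the 4 times, and 1, Jak1 at 24 hours, was lower. Of the transcription factors that act on GBP and IRG promoters, Stat2 was 1.34 times Egr2WT at basal and 2.37 times at 24 hours, Irf1 was 1.37 and 2.24 times and Irf9 was 1.32 and 2.05 times, and these 3 passed at all 4 times. Of the 17 partners on vacuoles and in inflammasomes, 2, 4, 3 and 5 were higher and 1, 1, 1 and 3 lower at the 4 times. Of all genes, 5.95%, 6.04%, 11.5% and 25.9% were higher and 5.56%, 5.37%, 9.12% and 11.5% lower. At 24 hours the share of partners that were higher was thus near that of all genes. Casp4, which encodes caspase-11, was higher at all 4 times, with a ratio of 1.85 at 24 hours, and so was Gsdmd, which encodes the pore-forming gasdermin D, with 1.51. Of the 7 other GTPases of both families tested, 3 were higher at basal and 6 at 24 hours.

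The F1 cells asked whether the 2 alleles differ when both sit in 1 nucleus. The values are expression weighted by the share of reads that overlap a variant of one parent, so they rank alleles within a gene and a library and are not TPM, and the depth behind them is unknown. In C57 x SPRET F1 BMDMs 7 members could be tested, since Gbp5, Gbp6 and Gbp8 were too low. The alleles differed for 4 at basal and 2 after IL-4, where 6.53% of all genes had the C57 allele higher at basal and 7.88% lower, and 3.73% and 4.15% after IL-4.

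**Figure D5:**
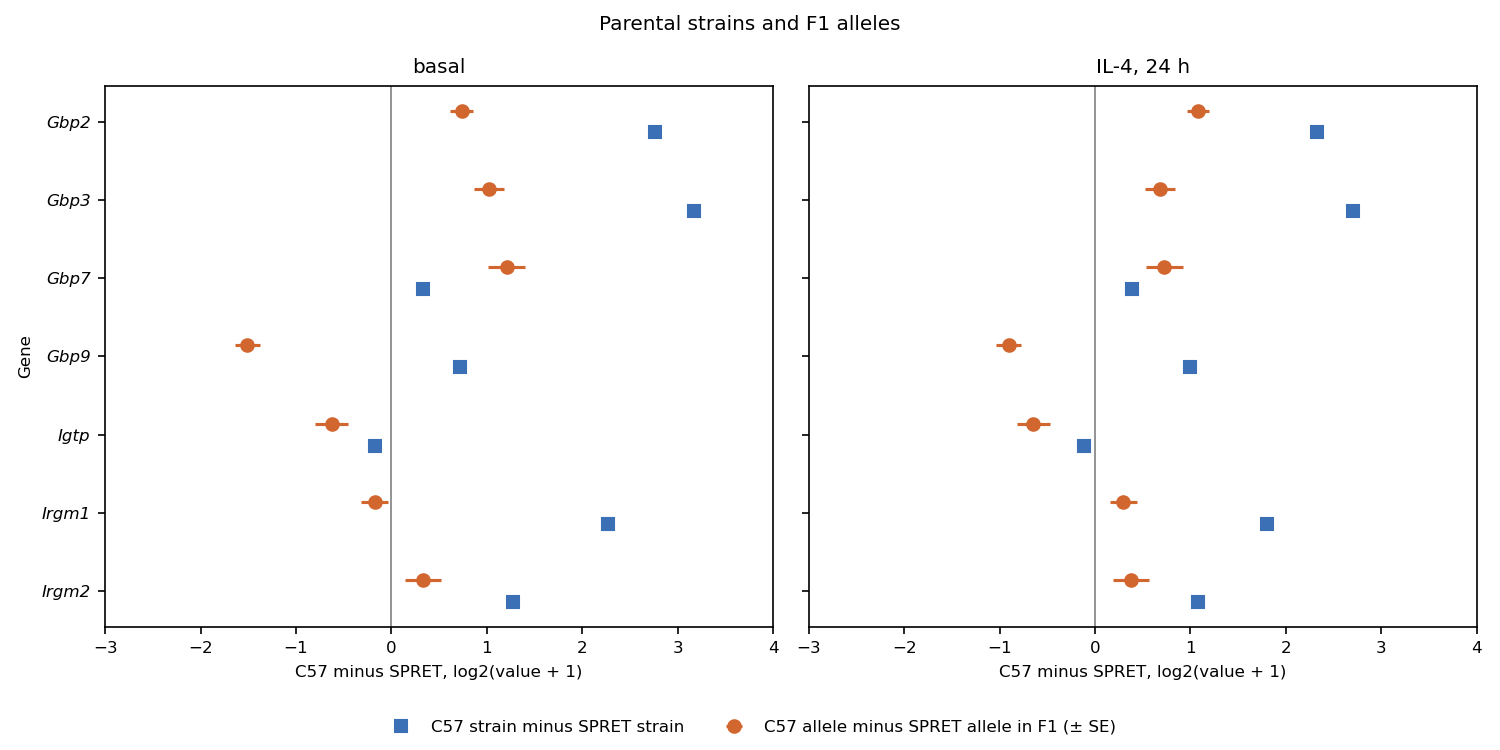
C57 minus SPRET on the log2(value + 1) scale for the members tested, between the parental strains (squares) and between the alleles of the F1 cells (points, bars of 1 SE), at basal and after 24 hours of IL-4. Irgm1 lies at 2.27 between the basal strains and at -0.18 between the basal F1 alleles, and Gbp9 at 0.72 and -1.51.

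Gbp2 had the C57 allele at 10.5 and 10.1 and the SPRET allele at 6.79 and 4.90 in the basal libraries, a log2 ratio of 0.74 ± 0.12 (adjusted p = 0.0352), beside 2.77 between the parental strains. After IL-4 the ratio was 1.08 (adjusted p = 0.0292), beside 2.33. Gbp3 had a basal allele ratio of 1.02 (adjusted p = 0.0319), beside 3.18 between the strains. Both genes thus had the C57 copy higher in the F1 cells as in the parents, with a smaller ratio. No test was made of the difference between the 2 ratios, since the tables are in different units.

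Irgm1 had alleles at 60.7 and 75.5 (C57) and 75.3 and 78.1 (SPRET) at basal, overlapping, with a ratio of -0.18 ± 0.14 (adjusted p = 0.456), beside 2.27 between the parental strains. Irgm2 had a ratio of 0.33 (adjusted p = 0.309), beside 1.27. Igtp had the SPRET allele at 30.6 and 39.3 and the C57 allele at 23.2 and 21.05, a ratio of -0.63 that did not pass (adjusted p = 0.0936), beside -0.17.

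Gbp9 was called in the F1 cells in the direction opposite to the strains. It had the C57 allele at 1.83 and 2.52 and the SPRET allele at 8.14 and 7.85 at basal, a ratio of -1.51 ± 0.13 (adjusted p = 0.0163), whereas the strains differed by 0.72 the other way. Gbp7 had the C57 allele at 6.06 and 6.37 and the SPRET allele at 1.84 and 2.45, a ratio of 1.21 (adjusted p = 0.0346), beside 0.33 between the strains. Of the 6 allele calls, the count was 0 without either basal library and 3 without either IL-4 library. In C57 x NOD F1 cells 4 members could be tested and none was called by limma, nor had any an unadjusted p under 0.05. The share of all genes called there was at most 0.146%.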

How the data were processed

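Poly(A) RNA-seq libraries of mouse BMDMs were analysed from the deposited tables. The authors mapped single-end reads with STAR to strain-specific genomes made from mm10 and deposited TPM per gene, made with HOMER, with 1 condensed transcript per gene; whether counting used strand is not given in the sources used here. For F1 cells the authors deposited allele-weighted expression, used here as a score. The authors' DESeq2 columns (fold changes, p-values) and the human table were not used.

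log2(TPM + 1) was fitted with limma 3.58.1 (R 4.3.3; empirical Bayes with trend, group means, all libraries of a table), with Benjamini-Hochberg adjustment over the genes that reached 1 TPM in 2 or more libraries (11907, 12088 and 12079 genes). For F1 cells the within-library log2 allele difference was tested against 0 in the same way. Scripts were tested on simulated data, with a shift of 1 on the log2(value + 1) scale given to genes above a set mean level. The shift was recovered for 98% of these genes in the C57 24-hour response and 41.5% in the F1 C57 x SPRET alleles after IL-4. Recovery for genes below that level, which lay above 1 TPM and was set higher for the F1 alleles, was not measured. Below it lay Gbp7, Gbp8 and Gbp9 in basal C57, and Gbp3, Gbp7 and Gbp9 in the F1 alleles. Alternatives were pseudocounts, filters, scalings, the replicate block, fits of only the groups compared and leaving out each library. The labels give only replicate numbers, so p-values measure the spread between these libraries. The members and gene lists were chosen with earlier results of these data known; all members are named, and genes of other lists only with their values.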

Additional observations from a re-analysis of the deposited data

Results flagged for a closer look

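These results are listed because the effect of IL-4 differed between strains or genotypes by the interaction test in limma, at an adjusted p under 0.05. All values are differences between 2 log2 responses at 24 hours.

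In the 5-strain table the response was lower in BALB than in C57 for Gbp2 (-0.44), Gbp3 (-0.57), Gbp5 (-0.52), Gbp6 (-0.60), Gbp7 (-0.66), Gbp8 (-0.53), Gbp9 (-0.60) and Igtp (-0.48). It was higher in NOD than in C57 for Irgm2 (0.83). In PWK it was higher for Gbp5 (0.63) and Irgm2 (0.72) and lower for Gbp8 (-0.58). In SPRET it was higher for Gbp2 (0.44), Gbp3 (0.47), Gbp5 (0.59) and Irgm1 (0.46) and lower for Gbp8 (-0.62). Gbp8 did not exceed 0.0520 TPM in PWK or 0.0280 TPM in SPRET, so its lower responses rest on the rise in C57.

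In the time course it was higher in SPRET than in C57 for Gbp2 (1.24) and Gbp5 (0.88) and lower for Gbp8 (-1.12), so that Gbp2, Gbp5 and Gbp8 had the same direction in both experiments. Both experiments used separate libraries. Between genotypes it was higher in Egr2MKO than in Egr2WT for Gbp7 (0.75), Gbp9 (0.78), Igtp (0.49), Irgm1 (0.73) and Irgm2 (1.10). The cause of these differences was not tested. No group held enough libraries for a test of single outlying values.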

How the results depend on the processing

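No member result that was rerun changed its direction past the threshold under any alternative. The steps from 6 to 24 hours, the basal SPRET against C57 levels of the time course and the strain pairs without C57 were not rerun. Of 155 calls for the members in the TPM contrasts that were rerun, 92 remained under every setting and 102 under every setting that kept all libraries. Of 6 F1 calls 0 and 1 did. Counts that moved by over 1.5 times were the time course (20, and 12 with a filter of 5 TPM or with only the groups compared), the difference between SPRET and C57 responses in it (3, and 1 with a filter of 5 TPM), the IL-4 responses of both Egr2 genotypes (21, and 13 with only the groups compared), the difference between those responses (5, and 3 under quantile normalisation) and the F1 C57 x SPRET alleles (6, and 1 without a filter). The cause was not tested, beyond the fewer genes or libraries that some settings hold. With each library left out in turn, the counts ranged over 17 to 21 for the 24-hour response, 31 to 33 for the basal levels, 12 to 19 for the response against C57, 13 to 19 for the time course, 2 to 5 for the SPRET against C57 response in it, 36 to 37 for Egr2MKO against Egr2WT, 14 to 22 for the responses of those genotypes, 3 to 6 for their difference, 0 to 3 for the F1 C57 x SPRET alleles and 0 to 0 for the F1 C57 x NOD alleles. The responses against C57 split into 7 higher and 10 lower, and into 4 and 14 under median-ratio scaling and 4 and 13 under quantile normalisation, but into 8 and 4 with only the groups compared or without the first basal BALB library and 8 and 5 with a filter of 5 TPM. Over all genes the median difference was 0.12 for the NOD response, 0.11 for SPRET and -0.11 for BALB.

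Deviations of same-numbered libraries from their group means correlated by -0.14 to 0.33, with a mean of 0.013, 0.030 and -0.0046 in the 3 TPM tables. In the F1 tables they correlated by 0.051 and 0.026. In the TPM tables these pairs join all groups, also different strains or genotypes, so the means cannot exclude that basal and IL-4 libraries of 1 strain or genotype were paired. The replicate block gave 5 calls in place of 3 for the SPRET against C57 response of the time course, 2 in place of 6 for the F1 C57 x SPRET alleles, and counts within 1.5 times for the others (20, 33, 21, 19, 37, 20, 5 and 0). Among responses against C57, the block also called Irgm1 in BALB (adjusted p = 0.0481) and Gbp5 and Irgm1 in NOD (adjusted p = 0.0244 and 0.0260), and it lost the 24-hour fall of Gbp7 in Egr2WT (adjusted p = 0.0510).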

Other observations

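In C57 x NOD F1 cells the allele values of the members were listed at 0 in many libraries, and the values are given without a comparison. At basal the C57 allele of Gbp2 was at 33.1 and 26.3 and the NOD allele at 20.8 and 17.2. Irgm2, which was at 0.230 times C57 in the parental NOD strain, had the C57 allele at 46.0 and 32.0 and the NOD allele at 37.4 and 33.5. Igtp had the C57 allele at 44.0 and 51.7 and the NOD allele at 23.1 and 8.32. After IL-4 the C57 allele of Gbp2 was at 0 and 3.18 and the NOD allele at 0 and 13.2. For Irgm2 they were then at 10.0 and 24.3 (C57) and 50.0 and 20.7 (NOD), and for Igtp at 4.37 and 15.4 (C57) and 0 and 20.0 (NOD). Gbp6, Gbp7, Gbp8, Gbp9 and Irgm1 were listed at 0 for both alleles in every library, and Gbp5 in every library but 1.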
